A study of Mus musculus with 8 samples.

Results

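The transcripts of 10 genes, 9 members of the PARP family (Parp1, Parp2, Parp3, Parp8, Parp9, Parp10, Parp11, Parp12 and Parp14) and Dtx3l, the ubiquitin ligase that partners Parp9, were followed in mouse liver tumors taken 3 h after injection of a TLR7 agonist. They were taken by symbol from the 55536 genes counted, and all 10 were found and had enough reads to be tested. HCA-1 cells, a mouse hepatocellular carcinoma line, were implanted in the liver of male C3H mice, and on day 17 the mice received an intravenous dose of PFSUV-IMQ or none. PFSUV-IMQ is imiquimod, a TLR7 agonist, carried in phospholipid-free small unilamellar vesicles. The 4 IMQNP tumors (replicates 1, 2, 3 and 4) came from mice given 4 mg/kg of it, and the 4 Control tumors (replicates 1, 3, 4 and 5) from mice that one passage of the study says received saline and another calls untreated. The labels put the age of the mice at 6 to 8 weeks, and the study's methods put it at 4 to 6 weeks. All tumors grew from 1 cell line, and empty vesicles or free imiquimod were not among the groups, so drug and carrier cannot be told apart here.

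PARP enzymes move ADP-ribose from NAD+ onto proteins. Parp1, Parp2 and Parp3 are switched on by DNA breaks, and Parp1 and Parp2 build chains of ADP-ribose, whereas Parp3 chiefly adds single units. Parp10, Parp11, Parp12 and Parp14 also add single units, and several of them, together with Parp9 and Dtx3l, are known as genes that type I interferon induces.

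The libraries held 16883911 to 27687756 counts in Control and 17008151 to 18527613 in IMQNP tumors, and the members had 323 to 14543 counts each, so that counting error was small beside the spread between tumors. Levels are given as CPM, which are counts divided by the library's total, corrected by edgeR's TMM factor, and groups as mean ± SD of 4 tumors. The comparison of IMQNP with Control used the quasi-likelihood test of edgeR, and a gene was called higher or lower at a Benjamini-Hochberg adjusted p under 0.05 over the 15998 genes tested. By this rule 7 of the 10 members were called higher in IMQNP tumors, among them all 5 of Parp9, Parp10, Parp11, Parp12 and Parp14, and none was called lower. Of all genes tested, 2.46% were called higher and 0.219% lower. The median log2 fold change was 2.15 over the members and -0.03 over all tested genes. Every IMQNP tumor lay above every Control tumor for 8 of the 10 members, and this held for 6.00% of all tested genes. In whole tumors, a change in the number of cells that carry a transcript and a change in its amount per cell cannot be told apart.

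**Figure D1:**
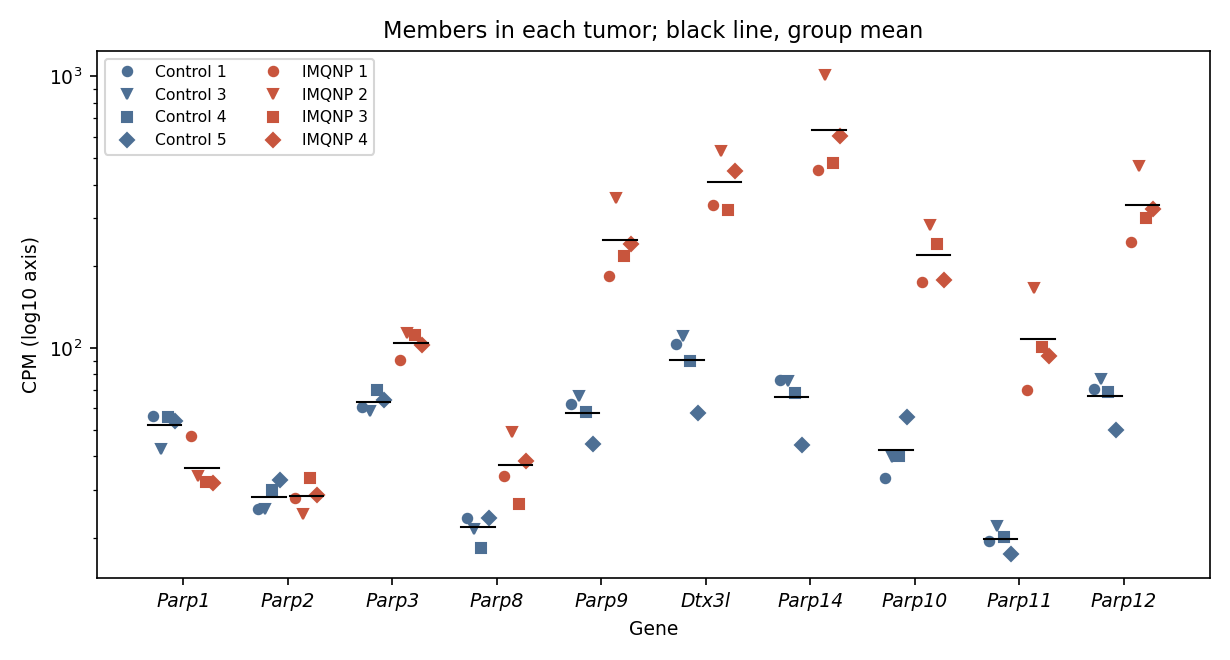
CPM of the 10 members (horizontal axis) in each of the 8 tumors on a log10 axis, with a marker shape for each tumor and a black line at the mean of each group of 4. Control and IMQNP points overlap for Parp1 and Parp2 and are apart for the other 8 genes, most widely for Parp14 (44.1 to 76.6 against 452 to 1014 CPM).

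Parp9 and Dtx3l form a complex in which Dtx3l supplies the ubiquitin ligase activity and Parp9 brings macrodomains that bind ADP-ribose. Parp9 was at 62.2, 66.4, 58.3 and 44.5 CPM in Control tumors 1, 3, 4 and 5 and at 184, 358, 219 and 241 CPM in IMQNP tumors 1, 2, 3 and 4. The lowest IMQNP value was 2.78 times the highest Control value. Parp9 rose 4.33-fold (95% confidence interval 2.99 to 6.27), a log2 fold change of 2.11 (SE 0.24, edgeR adjusted p = 0.00208). Dtx3l was at 103, 111, 90.0 and 57.5 CPM in Control tumors 1, 3, 4 and 5 and at 336, 529, 322 and 450 CPM in IMQNP tumors 1, 2, 3 and 4. Its groups were also apart, and it rose 4.52-fold (3.01 to 6.79), a log2 fold change of 2.18 (SE 0.26, edgeR adjusted p = 0.00259). The increases of the partners had overlapping intervals, and the ratio of Parp9 to Dtx3l in CPM per kilobase of annotated exon was 0.770 ± 0.0964 in Control and 0.717 ± 0.0923 in IMQNP tumors, with overlapping ranges (0.703 to 0.909 and 0.629 to 0.799).

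The genes of this complex lie side by side with Parp14 on chromosome 16 of build GRCm38, in the order Parp14 (35832874 to 35871544, minus strand), Dtx3l (35926511 to 35939151, minus strand) and Parp9 (35938470 to 35972605, plus strand). Dtx3l and Parp9 are arranged head to head and share 458 exon bases on opposite strands, 8.00% of the exon bases of Dtx3l and 9.40% of those of Parp9. Whether counting used the strand is not stated, so the origin of reads in the shared bases cannot be told. Parp14 ends 55.0 kb from the nearer end of Dtx3l. Within 100 kb on either side of the 3 genes the annotation has 6 other protein-coding genes, and none of them was called. The nearest on each side were Hspbap1, with a log2 fold change of 0.56 (SE 0.23, edgeR adjusted p = 0.322), and Kpna1, with -0.02 (SE 0.20, adjusted p = 0.984). The 6 neighbors ranged from -0.57 for Wdr5b to that of Hspbap1.

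**Figure D2:**
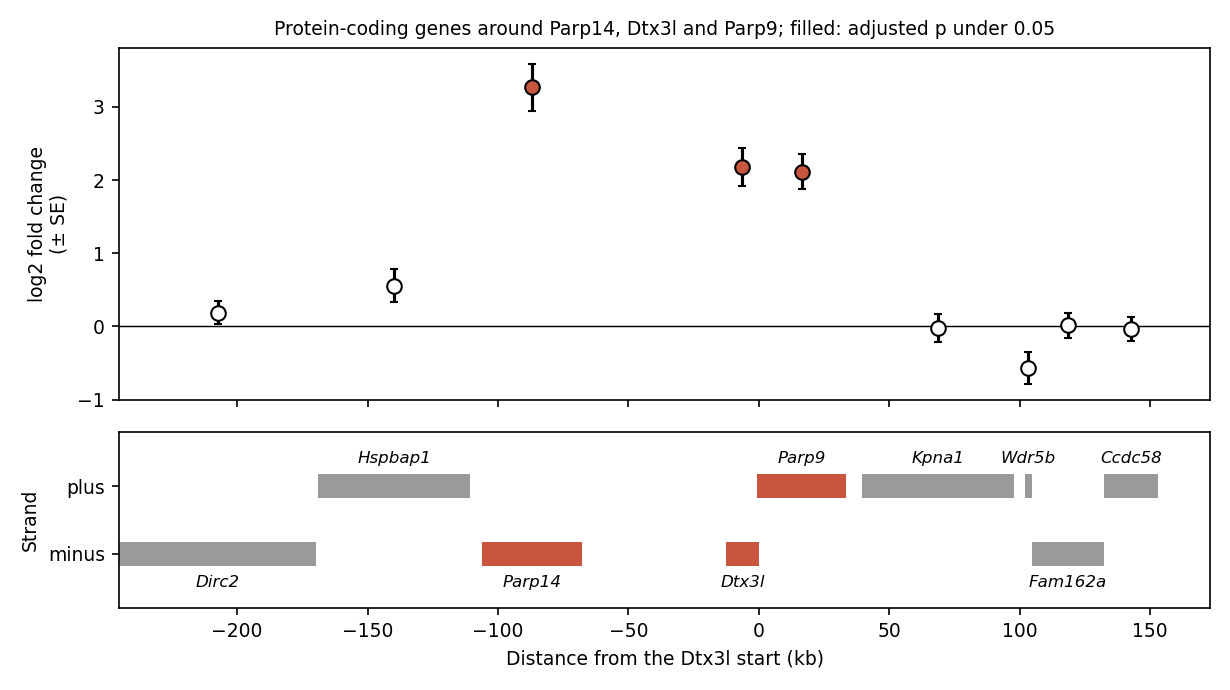
Upper panel, log2 fold change of IMQNP against Control tumors (± SE) for the 9 protein-coding genes around Parp14, Dtx3l and Parp9; lower panel, their extent and strand; horizontal axis, distance from the Dtx3l start in kb. Parp14, Dtx3l and Parp9 stand between 2.11 and 3.27 and the other 6 genes between -0.57 and 0.56.

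Parp14, a large macrodomain protein with mono-ADP-ribosyltransferase activity, had the largest change of the members. It was at 76.6, 75.7, 68.4 and 44.1 CPM in Control tumors 1, 3, 4 and 5 and at 452, 1014, 478 and 604 CPM in IMQNP tumors 1, 2, 3 and 4. The lowest IMQNP tumor had 5.90 times the level of the highest Control tumor. Parp14 rose 9.62-fold (95% confidence interval 5.82 to 15.9), a log2 fold change of 3.27 (SE 0.32, edgeR adjusted p = 0.00096). Its interval overlapped those of Parp9, Parp10, Parp11, Parp12 and Dtx3l, and the difference between Parp14 and these genes was not tested.

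Parp10, Parp11 and Parp12 are mono-ADP-ribosyltransferases encoded on chromosomes 15 and 6. Parp10 (chromosome 15, 76231174 to 76243441, minus strand) was at 33.2, 39.9, 40.0 and 55.9 CPM in Control tumors 1, 3, 4 and 5 and at 175, 283, 241 and 178 CPM in IMQNP tumors 1, 2, 3 and 4. It rose 5.20-fold (3.61 to 7.48), a log2 fold change of 2.38 (SE 0.23, edgeR adjusted p = 0.00096). Exons of Plec on the same strand overlap 4.80% of its exon bases. Control 5 held the highest Control value of Parp10, whereas it held the lowest for Parp9, Parp11, Parp12, Parp14 and Dtx3l. Parp12 (chromosome 6, 39086410 to 39118349, minus strand), a zinc-finger protein, was at 70.9, 77.2, 69.1 and 49.9 CPM in Control tumors 1, 3, 4 and 5 and at 247, 470, 301 and 326 CPM in IMQNP tumors 1, 2, 3 and 4. It rose 5.03-fold (3.46 to 7.32), a log2 fold change of 2.33 (SE 0.24, edgeR adjusted p = 0.00121).

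Parp11 (chromosome 6, 127446840 to 127494261, plus strand) was the least abundant of the called members per kilobase of exon. It was at 19.6, 22.1, 20.3 and 17.5 CPM in Control tumors 1, 3, 4 and 5 and at 70.3, 166, 101 and 93.4 CPM in IMQNP tumors 1, 2, 3 and 4. Each IMQNP tumor was at least 3.17 times the highest Control tumor. Parp11 rose 5.42-fold (3.62 to 8.11), a log2 fold change of 2.44 (SE 0.26, edgeR adjusted p = 0.00139).

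Interferon signals reach genes through the interferon-stimulated response element, whose core was searched as GAAANNGAAA on both strands, and through the gamma-activated site, searched as TTCNNNGAA, which reads alike on both strands. RefSeq promoter windows (build GRCm38.p6, 250 bases before to 50 bases after a start) were at hand for 7 members, in 8 windows, and not for Parp9, Parp10 and Parp14. Of 32851 such windows over all genes, 3.44% held the response element core and 8.30% the gamma-activated site. Among the members both were found in 1 window of Parp11, where they overlap. The windows of Parp1, Parp2, Parp3, Parp8, Parp12 and Dtx3l did not hold these letters. Among 39 other genes of ADP-ribosylation and interferon signaling that had a window, the core was found in Stat2, Parp4 and Xrcc1. The stretches of Parp11, Stat2 and Parp4 are printed 5′ to 3′ because the same core stands before genes that changed by different amounts, with matches to either motif in capitals. Parp11 is at chr6:127446740-127446839 (plus strand), Stat2 at chr10:128270248-128270347 (plus strand) and Parp4 at chr14:56575429-56575528 (plus strand).
Parp11: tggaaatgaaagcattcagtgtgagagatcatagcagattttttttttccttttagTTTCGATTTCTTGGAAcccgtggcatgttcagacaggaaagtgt
Stat2: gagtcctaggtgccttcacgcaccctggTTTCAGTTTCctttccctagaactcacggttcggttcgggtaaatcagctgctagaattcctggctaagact
Parp4: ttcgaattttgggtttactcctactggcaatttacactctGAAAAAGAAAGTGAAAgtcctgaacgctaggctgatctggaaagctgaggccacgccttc
In Parp11 the core begins 44 bases before the start and the gamma-activated site 37 bases before it. In Stat2 the core begins 222 bases before the start. In Parp4 a pair of overlapping cores begins 150 and 144 bases before it. The log2 fold changes of these genes were 2.44 for Parp11, 2.34 for Stat2 and 0.32 for Parp4 (SE 0.18, edgeR adjusted p = 0.517), and that of Xrcc1 was -0.20 (adjusted p = 0.854). Parp4 and Xrcc1 held the core and were not called, and the called genes Parp3, Parp12, Dtx3l, Zc3hav1 and Irf9 had windows without it. The search took exact letters in these windows only, so sites farther away or with other letters were not seen. The part of either motif in the changes was not tested. Of the 39 other genes, 4 held the gamma-activated site (Irf1, Dtx2, Parp16 and Qprt), with log2 fold changes of 0.87, 0.48, 0.22 and -0.13, none of them called.

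Parp8 (chromosome 13, 116854820 to 117025537, minus strand), a less studied mono-ADP-ribosyltransferase, was at 23.8, 21.7, 18.3 and 23.8 CPM in Control tumors 1, 3, 4 and 5 and at 33.7, 49.3, 26.8 and 38.6 CPM in IMQNP tumors 1, 2, 3 and 4. The groups did not overlap, but the gap between them was narrow, with the lowest IMQNP tumor at 1.12 times the highest Control tumor. Its log2 fold change was 0.76 (SE 0.21, 95% confidence interval 0.30 to 1.22), which did not pass the adjustment (edgeR adjusted p = 0.106).

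Of the 3 PARPs that DNA breaks activate, Parp3 was called higher, and Parp1 and Parp2 were not called. Parp1 (chromosome 1, 180568924 to 180601254, plus strand), the main source of ADP-ribose chains after damage, was at 56.3, 42.5, 55.6 and 53.8 CPM in Control tumors 1, 3, 4 and 5 and at 47.7, 33.8, 32.1 and 31.9 CPM in IMQNP tumors 1, 2, 3 and 4. The groups overlapped through Control 3 and IMQNP 1. Its log2 fold change was -0.52 (SE 0.18, 95% confidence interval -0.92 to -0.11), with an unadjusted p of 0.0182 and an edgeR adjusted p of 0.241. Parp1 was the only member with a negative estimate. Parp2 (chromosome 14, 50807841 to 50821301, plus strand), its closest relative, was at 25.6, 25.5, 30.0 and 32.6 CPM in Control tumors 1, 3, 4 and 5 and at 28.0, 24.6, 33.3 and 28.8 CPM in IMQNP tumors 1, 2, 3 and 4. The groups overlapped throughout. The 95% confidence interval of its log2 fold change was -0.35 to 0.37 around 0.01, or 0.786-fold to 1.29-fold (edgeR adjusted p = 0.989).

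Parp3 (chromosome 9, 106470322 to 106476949, minus strand), which takes part in the repair of double-strand breaks, was at 60.8, 58.5, 70.3 and 64.6 CPM in Control tumors 1, 3, 4 and 5 and at 90.6, 114, 112 and 102 CPM in IMQNP tumors 1, 2, 3 and 4. Every IMQNP tumor lay above every Control tumor, by at least 1.29 times. Parp3 rose 1.65-fold (95% confidence interval 1.32 to 2.05), a log2 fold change of 0.72 (SE 0.14, edgeR adjusted p = 0.0286). The call stood near the threshold: leaving out Control 1, 3, 4 or 5 or IMQNP 2, 3 or 4 raised the adjusted p to between 0.0552 and 0.115, while the log2 fold change stayed between 0.66 and 0.78 over the 8 fits without 1 tumor.

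**Figure D3:**
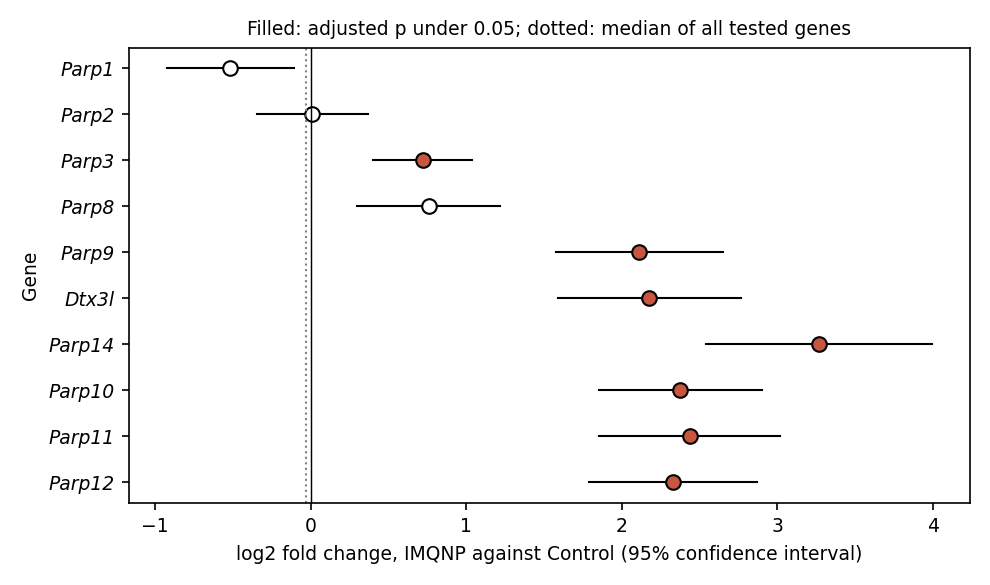
log2 fold change of IMQNP against Control tumors (horizontal axis) with its 95% confidence interval for the 10 members, filled where the edgeR adjusted p was under 0.05; the dotted line marks the median of all tested genes, -0.03. The estimates run from -0.52 for Parp1 to 3.27 for Parp14, and the intervals of Parp9, Dtx3l, Parp14, Parp10, Parp11 and Parp12 lie above 1.5, to the right of those of Parp1, Parp2, Parp3 and Parp8.

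Set against Parp1, Parp2 and Parp3, the genes Parp9 to Parp14 (Parp9, Parp10, Parp11, Parp12 and Parp14) changed by more, a description without a test. Their mean log2 CPM minus that of Parp1, Parp2 and Parp3 was 0.07, 0.35, -0.07 and -0.29 in Control tumors 1, 3, 4 and 5 and 1.95, 3.06, 2.27 and 2.39 in IMQNP tumors 1, 2, 3 and 4. On this scale, which is not corrected for exon length, the sets were near each other in Control. In every IMQNP tumor Parp9 to Parp14 were higher by at least 1.95. Exon length shifts these values alike in all tumors and does not enter the change between groups. The difference moved by 2.40 log2 units between the groups, with an SD of 0.38 over tumors around their group means, equal to 5.29-fold. The mean log2 CPM of Parp9 to Parp14 went from 5.52 ± 0.15 to 7.99 ± 0.42 and that of Parp1, Parp2 and Parp3 from 5.50 ± 0.14 to 5.57 ± 0.07, and within the second set the estimates of Parp1 and Parp3 had opposite signs.

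Per kilobase of annotated exon, a rough scale for comparing levels of different genes, the make-up of the family differed between the groups. The length used was that of all annotated exons of a gene, which can exceed that of its transcripts. For Parp8 it was 8.882 kb, against 3436 bases for its longest annotated transcript, and for Parp12 3.995 kb against 3231 bases. The order of genes and their shares of the sum rest on this choice, and other lengths were not tried. In Control tumors the highest levels were those of Parp3 (17.2 ± 1.39 CPM per kb), Parp12 (16.7 ± 2.95) and Dtx3l (15.8 ± 4.13), and the lowest those of Parp11 (2.83 ± 0.273) and Parp8 (2.47 ± 0.288). Between them stood Parp9 (11.9 ± 1.95), Parp10 (9.88 ± 2.25), Parp1 (9.83 ± 1.22), Parp2 (7.84 ± 0.961) and Parp14 (7.11 ± 1.63). Of the 9 neighbors in this order 8 had overlapping ranges over the tumors, and the exception was the step from Parp14 to Parp11. In IMQNP tumors the order was led by Parp12 (84.0 ± 23.8 CPM per kb), Dtx3l (71.5 ± 17.2), Parp14 (68.5 ± 27.9), Parp9 (51.4 ± 15.4) and Parp10 (51.4 ± 12.2), whose ranges overlapped from each to the next. Parp3 followed at 28.3 ± 2.89 and Parp11 at 15.3 ± 5.82, each below the gene before it in every tumor. Parp2 (7.90 ± 0.988) and Parp1 (6.87 ± 1.44) overlapped, and Parp8 (4.18 ± 1.07) was last.

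The summed level of the 10 transcripts was 91.2 to 106 CPM per kb in Control and 303 to 532 CPM per kb in IMQNP tumors. Parp14 supplied 6.95 ± 1.22% of this sum in Control and 17.1 ± 2.46% in IMQNP tumors, without overlap. Parp1, Parp2 and Parp3 together fell from 29.1 to 40.1% of the sum to 8.27 to 13.6%. That share falls when other genes rise, so it does not show a loss of their transcripts. The ratio of Parp14 to Parp1 per kb was 0.774, 1.01, 0.699 and 0.467 in Control tumors 1, 3, 4 and 5 and 5.39, 17.1, 8.47 and 10.8 in IMQNP tumors 1, 2, 3 and 4.

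**Figure D4:**
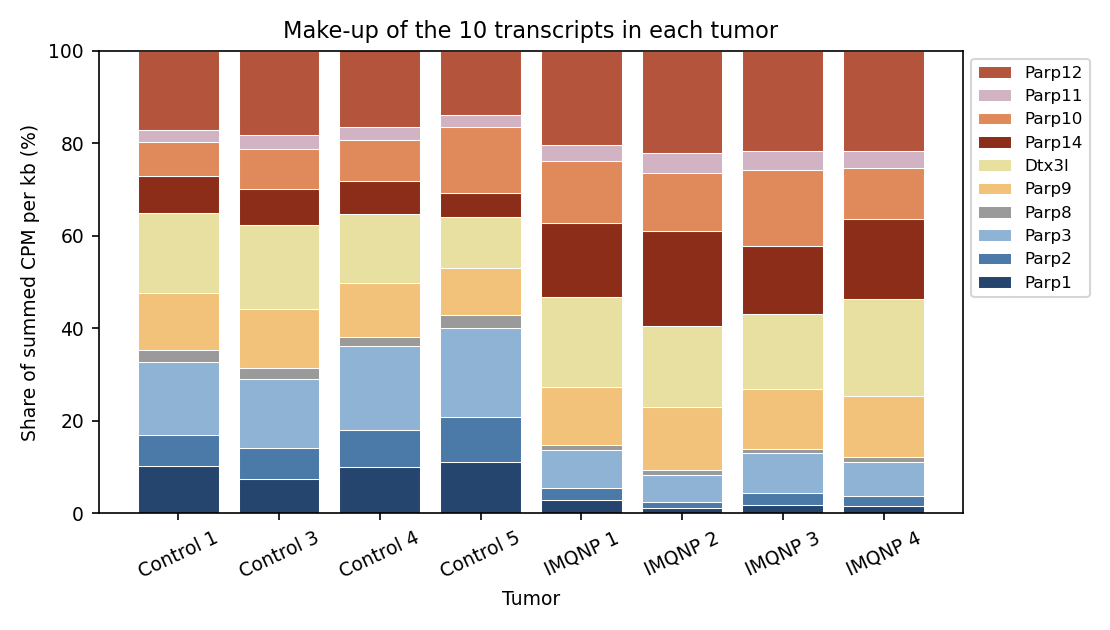
Share of each member in the summed CPM per kb of the 10 transcripts (vertical axis, percent) in each of the 8 tumors. The blue segments of Parp1, Parp2 and Parp3 take 29.1 to 40.1% in Control and 8.27 to 13.6% in IMQNP tumors, and the dark red segment of Parp14 takes 5.19 to 7.90% and 14.8 to 20.5%.

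Tumor IMQNP 2 held the highest value of its group for all 7 members called higher, and it did so for 344 of the 394 genes called higher in all, 87.3%. Without this tumor the log2 fold changes of Parp9, Parp10, Parp11, Parp12, Parp14 and Dtx3l were 1.87, 2.22, 2.13, 2.11, 2.93 and 2.01, each still called (largest edgeR adjusted p 0.00304), and Parp3 was not called (0.66, adjusted p = 0.0642). IMQNP 2 also had the largest share of mitochondrial counts, 6.65% against 1.37 to 5.22% in the other tumors, and the lowest TMM factor, 0.843. Hepatocyte genes (8 of 8 tested, none called) summed to 4440 to 34400 CPM in Control and 6340 to 35500 CPM in IMQNP tumors. They were highest in IMQNP 2 and lowest in Control 5. Control 4 held the highest Control sum, close to that of IMQNP 2 (Alb at 22400 and 22700 CPM). In Control 4 Parp14 was at 68.4 and Parp9 at 58.3 CPM, against 1014 and 358 CPM in IMQNP 2. Control 5 was also the lowest Control tumor for 5 of the 7 called members, and for 149 of the 394 genes called higher in all, 37.8%. IMQNP 2 was the highest of the 8 tumors in 6 of 11 marker lists, which were, beside the hepatocyte list, the leukocyte (762 CPM summed, others 372 to 617), neutrophil (143, others 15.7 to 59.3), plasmacytoid dendritic cell (856, others 254 to 645), T and NK cell (138, others 52.7 to 121) and B cell lists (20.8, others 1.93 to 8.07). These sums did not hold for every gene. Laptm5, Coro1a and Tyrobp of the leukocyte list were higher in a Control tumor than in IMQNP 2. So were Cd3g, Trac, Ncr1 and Klrb1c of the T and NK cell list, Siglech and Cyp2e1. Bst2 held 454 CPM of the plasmacytoid dendritic cell sum in IMQNP 2. In the neutrophil and B cell lists every gene was highest in IMQNP 2. The part of mitochondrial share and of these cell types in the members' values was not tested. Without Control 5 the same 6 genes had log2 fold changes from 2.01 to 3.11 and stayed called, and Parp3 was not called (0.73, adjusted p = 0.0552).

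Among markers of the cell types that the tumors could hold, few genes were called. Of the hepatocellular tumor, leukocyte, conventional dendritic cell, T and NK cell, B cell, neutrophil, endothelial and fibroblast lists (6, 6, 6, 7, 4, 6, 6 and 6 genes), none had a gene called in either direction, and Ly6g of the neutrophil and Klrb1c of the T and NK cell list had too few counts to be tested. Summed leukocyte markers were at 480 to 617 CPM in Control and 372 to 762 CPM in IMQNP tumors, and summed neutrophil markers at 15.7 to 59.3 and 30.6 to 143 CPM. These ranges overlapped. The 5 neutrophil genes tested all had positive log2 fold changes (median 1.16), and of these Retnlg had every IMQNP tumor (1.87 to 10.9 CPM) above every Control tumor (0.0429 to 1.56 CPM), with a log2 fold change of 2.48 (SE 0.94, adjusted p = 0.291). The leukocyte gene Coro1a had every IMQNP tumor below every Control tumor (log2 fold change -0.56, adjusted p = 0.288). Of 8 macrophage and Kupffer cell genes, Vsig4, a receptor of resident macrophages, was called lower (log2 fold change -1.62, SE 0.35, edgeR adjusted p = 0.0453). All 8 had negative log2 fold changes (median -0.35), after Vsig4 the largest that of Clec4f (-0.96, adjusted p = 0.122). The list summed to 791 to 1170 CPM in Control and 582 to 1100 CPM in IMQNP tumors. In the conventional dendritic cell list every gene but Clec9a had a negative log2 fold change (median -0.56). The 5 plasmacytoid dendritic cell genes summed to 254 to 381 in Control and 506 to 856 CPM in IMQNP tumors. Of these Bst2 was called higher (1.90, SE 0.25, adjusted p = 0.00381). It is itself induced by interferon, and Siglech, the defining gene of the list, had a log2 fold change of -1.11 (adjusted p = 0.271) and at most 4.56 CPM. Their part in the members' changes was not tested. No marker gene of any list was at 0 in all tumors. Of the hepatocellular tumor genes, the keratins Krt8 and Krt18 were abundant (443 to 939 and 549 to 1253 CPM over all tumors), whereas Afp and Gpc3, common markers of the disease, were at no more than 6.07 and 1.98 CPM.

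Outside the members, 50 other genes of ADP-ribosylation, NAD metabolism and interferon-activated transcription were followed, of which 46 had enough counts to be tested. Of these 4 were called higher (8.70%, against 2.46% of all tested genes) and none lower. They were Zc3hav1, Nnmt, Stat2 and Irf9, of which Stat2 and Irf9 are 2 of the 3 interferon-activated factors in the lists. An unadjusted p under 0.05 was reached by 9 higher and 3 lower genes, 19.6% and 6.52% of the 46, against 8.34% and 4.65% of all tested genes. DESeq2's Wald test called 7 higher and 1 lower. The median log2 fold change over the 46 genes was -0.02, close to that of all tested genes.

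Of 9 further PARPs and related genes, 7 are family members, and Parpbp and Zc3hav1l are a Parp1-binding protein and a relative of Zc3hav1. Among the 7 family members Zc3hav1 (also named Parp13, an antiviral protein that binds viral RNA and lacks catalytic activity) was at 190 ± 32.8 CPM in Control and 439 ± 70.1 CPM in IMQNP tumors and was called higher. Its log2 fold change was 1.20 (SE 0.20, edgeR adjusted p = 0.0116). The call was lost without IMQNP 4 (adjusted p = 0.0515). The other 6, as well as Parpbp and Zc3hav1l, were not called. Tiparp (Parp7) stood at 0.54 (SE 0.26, adjusted p = 0.439), and the tankyrases Tnks and Tnks2 at -0.17 and -0.01. The median log2 fold change over these 7 PARPs, Zc3hav1 among them, was 0.22. Over Parp9 to Parp14, a set that here leaves out Parp13, it was 2.38.

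The enzymes that remove ADP-ribose were not called in either direction (8 of 9 tested, median log2 fold change -0.14). Those with the largest changes were the phosphodiesterase Nudt16 (-0.54, SE 0.21, edgeR adjusted p = 0.308), the glycohydrolase Oard1 (-0.37, SE 0.15, adjusted p = 0.325) and Macrod2 (-0.26, SE 0.26, adjusted p = 0.773). Oard1 had every IMQNP tumor (17.99 to 22.47 CPM) below every Control tumor (24.58 to 30.35 CPM). Parg, which cleaves ADP-ribose chains, was at 27.9 ± 5.79 CPM in Control and 28.4 ± 1.21 CPM in IMQNP tumors. For Parg the 95% confidence interval of the log2 fold change was -0.36 to 0.41.

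Of the genes that supply or use NAD, the methyltransferase Nnmt, which consumes nicotinamide, was called higher (1 of 10 tested in the NAD synthesis list). It was at 1.51 ± 0.407 CPM in Control and 7.99 ± 4.13 CPM in IMQNP tumors, a log2 fold change of 2.39 (SE 0.42, edgeR adjusted p = 0.0168). This call was lost without Control 1, 3 or 4 (largest adjusted p 0.0631). Nampt, the rate-limiting enzyme of NAD salvage, was at 78.8 to 173 CPM in Control and 205 to 537 CPM in IMQNP tumors. The groups did not overlap, but the log2 fold change of 1.22 (SE 0.36) did not pass the adjustment (adjusted p = 0.147). Nmnat3, which makes NAD in the last step of its synthesis, had -1.05 (SE 0.30, adjusted p = 0.132). Its groups did not overlap either, with 3.63 to 6.09 CPM in Control and 1.39 to 2.75 CPM in IMQNP tumors. The NAD-consuming ectoenzymes Cd38 and Bst1 had 0.98 (SE 0.39, adjusted p = 0.310) and 1.05 (SE 0.49, adjusted p = 0.416), and the groups of Bst1 overlapped. Without IMQNP 2 both estimates were 0.38.

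None of 11 tested partners of Parp1 and genes of single-strand break repair was called (median -0.11). The largest change was that of Timeless, a replication fork protein that binds Parp1, at 0.82 (SE 0.20, edgeR adjusted p = 0.0693). The remodeler Chd1l and the histone gene H2afy2 followed at -0.34 and -0.33, and Hpf1, the cofactor that directs Parp1 to serine, was at 35.5 ± 3.35 and 36.1 ± 2.33 CPM. Of the relatives of Dtx3l in the Deltex family, 3 of 4 were tested and none was called. Dtx2 had 0.48 (SE 0.18, adjusted p = 0.267), Dtx3 0.19 (SE 0.34, adjusted p = 0.896) and Dtx4 -0.38 (SE 0.18, adjusted p = 0.434). Dtx2 also had every IMQNP tumor (23.89 to 30.08 CPM) above every Control tumor (15.6 to 23.46 CPM). Dtx3l was the only called gene among the 4 tested of its family, and its change was not tested against theirs.

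Stat2 and Irf9 are transcription factors that act together in the response to type I interferon, and Irf1 is a related interferon-inducible factor. Stat2 was at 102 ± 11.9 CPM in Control and 516 ± 81.2 CPM in IMQNP tumors. Its log2 fold change of 2.34 (SE 0.19, edgeR adjusted p = 0.0005) was close to those of Parp9 to Parp12. Irf9 rose by less, with 1.26 (SE 0.19, adjusted p = 0.0087). Irf1 had 0.87 (SE 0.23, adjusted p = 0.0939). All 3 genes had every IMQNP tumor above every Control tumor.

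**Figure D5:**
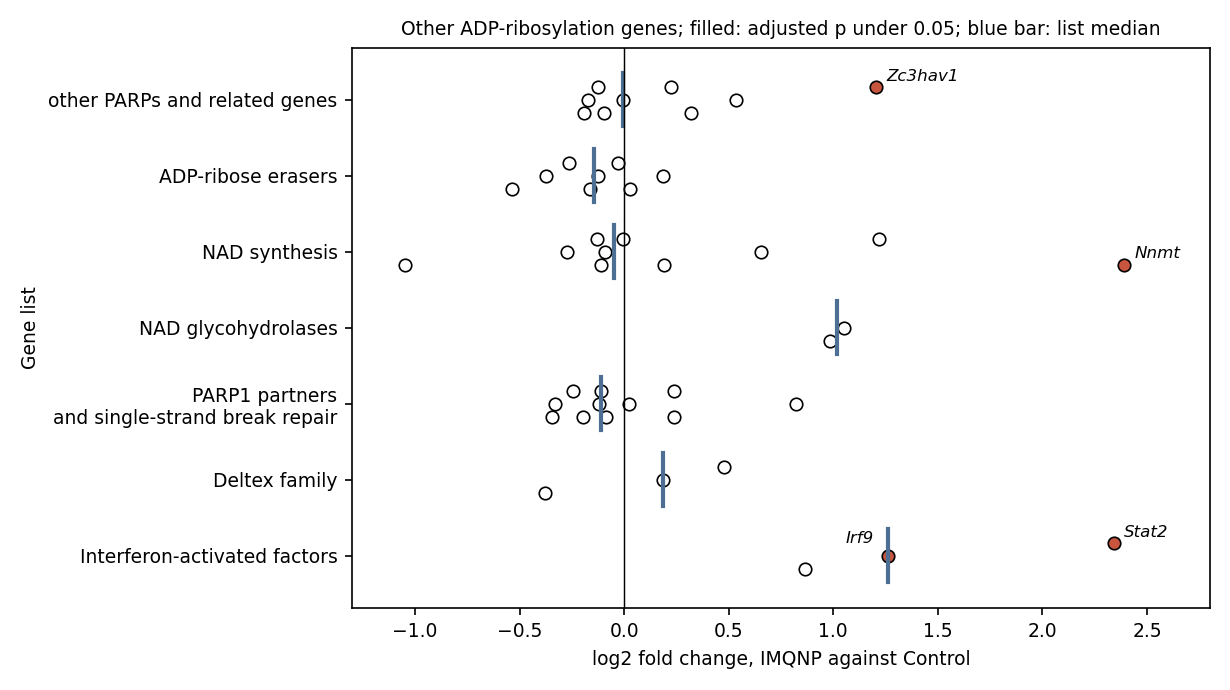
log2 fold change of IMQNP against Control tumors (horizontal axis) for the 46 tested genes of 7 further lists, 1 point per gene, filled and named where the edgeR adjusted p was under 0.05; blue bars mark list medians. Filled points are Zc3hav1, Nnmt, Stat2 and Irf9, and the medians of the eraser and repair lists lie at -0.14 and -0.11.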

How the data were processed

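The authors deposited whole-number counts of reads per gene for 8 tumors, which were the input of every test, and a table of signal values in which each tumor's counts are divided by a DESeq2 size factor (largest departure from a single factor 5.4e-10), used here for gene symbols. The study's methods name TopHat and HTSeq, whereas the submitters' processing notes name Trimmomatic 0.38, HISAT2 2.1.0 and featureCounts 2.0.0. The genome build is not given in the sources used here, and all 55536 identifiers are in GENCODE M21 (GRCm38), the source of coordinates and exon lengths.

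Counts were fitted in R 4.3.3 with edgeR 4.0.16 (TMM, default filter on low counts, quasi-likelihood test, no covariates), tested on simulated data beforehand. Alternatives were DESeq2 1.42.0, other scalings, filters, tests and fold limits, a replicate block, and each tumor left out. Levels on the log2 CPM scale used a prior count of 2. Python 3.11.15 (pandas 2.3.3, numpy 2.4.6) made the tables. The members, gene lists and tests were chosen with earlier results of these data known. Genes outside the members were named where called, where among the 3 with the largest change of their list, or as interferon-activated factors. A further gene of the last list is not reported here. Those named as examples beyond this, the neighbors on chromosome 16, the genes with a motif match and single markers were chosen after their values were seen. Tumors came from separate animals, and no batch is given.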

Additional observations from a re-analysis of the deposited data

Results flagged for a closer look

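In each group of 4 tumors, a tumor was marked when its gap to the nearest other tumor, as a share of the group's range, exceeded Dixon's 95% critical value. This was done for 30 named genes, and 4 of the 60 groups were marked, where chance alone marks about 5% of groups. Among the members this was the case for Parp1 in IMQNP 1, at 47.7 CPM against 31.9 to 33.8 CPM in the other IMQNP tumors. The others were Nmnat3 in Control 4 (6.09 CPM), Cd38 in IMQNP 2 (91.0 CPM) and Dtx2 in IMQNP 1 (30.1 CPM), each the highest of its group. The causes were not tested.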

How the results depend on the processing

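Over 17 alternative settings, 6 of the 7 called members (Parp9, Parp10, Parp11, Parp12, Parp14 and Dtx3l) stayed called, none of the 3 uncalled members was called, and no named gene with a call changed sign. Between 6 and 7 members were called higher and none lower, also without 1 tumor (6 to 7). Parp3 was not called in 12 settings: with upper-quartile factors (log2 fold change 0.65, adjusted p = 0.0513), without a filter on low counts (0.715, adjusted p = 0.0856), by glmTreat testing against a log2 fold change of 1 or with a limit of 1 on that value (0.72 in both), with a replicate block (0.69, adjusted p = 0.0624) and in 7 of the 8 fits without 1 tumor (0.66 to 0.78). The causes of these changes were not tested. The contrast of Parp9 to Parp14 with Parp1, Parp2 and Parp3 lay between 2.19 and 2.56 without 1 tumor and with a prior count of 0.5. The other 4 of its 13 settings, scalings and filters, cannot move a difference taken within each tumor. Of all genes, DESeq2's Wald test called 729 higher and 176 lower, edgeR's likelihood ratio test 633 and 116, and glmTreat 119 and 1. Without a filter 64 were lower. Without 1 tumor 198 to 398 were higher and 8 to 41 lower, fewest higher without Control 1 and fewest lower without IMQNP 4. The count of higher genes fell more than 1.5 times without Control 1, 3 or 4 or IMQNP 4 (198, 212, 240 and 244), and that of lower genes without Control 1, 3 or 4 or IMQNP 3 or 4 (16, 13, 17, 10 and 8). Of the other genes of ADP-ribosylation, NAD metabolism and interferon-activated transcription, the Wald and likelihood ratio tests called 7 higher and glmTreat 1. The Wald test called 1 of them lower. Without 1 tumor 3 to 4 were higher and 0 lower. Of the 4 such genes called, only Stat2, an interferon-activated factor, was called in every setting. A further 4 named genes (Nampt, Nmnat3, Timeless and Irf1) were called only in alternatives. Both groups have tumors numbered 1, 3 and 4, and same-numbered tumors come from different animals. Their deviations correlated at 0.29, -0.27 and -0.32, within the range of differently numbered pairs, -0.64 to 0.68. These few values cannot tell whether same-numbered tumors shared a batch. With the replicate block 302 genes were lower and 519 higher. Other scalings shifted the median of all genes by at most 0.07 on the log2 scale. At this depth Adprhl1, Nmrk2, Sarm1 and Dtx1 had too few counts to be tested.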

Other observations

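The genes whose profile over the 8 tumors was nearest to that of a member, by the root mean square difference of log2 CPM centered on each gene's mean, were listed for Parp9, Parp14 and Parp1. Nearest to Parp9 was Parp12, on another chromosome (0.12), followed by Nt5c3 (0.13), the pseudogene Slfn10-ps (0.14), Dtx3l (0.17) and Samhd1 (0.18). Parp11 ranked 7 for Parp9 (0.19), Parp10 ranked 114 (0.40) and Parp14 ranked 368 (0.58). Parp9 and Dtx3l share exon bases, and the part of shared reads in their likeness was not tested. Nearest to Parp14 were Ifih1, the RNA sensor MDA5 (0.15), Phf11d (0.20), Gm12185 (0.22), Gm12250 (0.22) and Oas3 (0.22). The closest member was Parp12, at rank 61 (0.48), and the neighboring Dtx3l ranked 86 (0.54). Nearest to Parp1 were Ppp1ca (0.07), Kiz (0.07), Ube2d-ps (0.08), Cerk (0.09) and Tec (0.10), none of which was called (edgeR adjusted p from 0.123 to 0.469). For Parp1 the closest member, Parp2, ranked 4141 (0.37). These distances are descriptions over 8 tumors that fall into separate groups, and no test was made of them.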
